A study of Homo sapiens with 10 samples.

Results

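The claudins and their tight junction partners were followed in A549, a human lung adenocarcinoma cell line, and in A549/DDP, a line derived from A549 that is resistant to cisplatin (DDP). The set held 10 genes of the 58037 in the tables: the claudins CLDN1, CLDN2, CLDN3, CLDN4, CLDN7, CLDN12 and CLDN18, the transmembrane proteins OCLN and F11R, and the scaffold gene TJP1. These genes were chosen by symbol with their levels in these libraries known, so the levels and fold changes given for them are descriptions without a test. Each line had 2 input libraries, which measure RNA abundance, and 2 m6A-seq libraries made from RNA fragments pulled down with an antibody against N6-methyladenosine (m6A). A further pair of A549 input libraries, whose experiment the labels do not name, was kept apart. Both lines were grown in the same medium, without a drug being named, at a passage of 10 or lower. The resistant cells are a single gifted line, so resistance and every other difference between these lines cannot be told apart. Nothing in the labels says that replicates came from separate cultures, and a p-value then measures only the spread between libraries.

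Tight junctions seal the space between neighbouring epithelial cells. Claudins are the membrane proteins that build the junction strands, and the mixture of claudins in a cell sets whether the seal is a barrier or lets ions and water through. Claudin-1 is known as a sealing claudin, whereas claudin-2 forms a channel for cations and water. Occludin and the junctional adhesion molecule JAM-A, the product of F11R, sit in the same membrane, and ZO-1, the product of TJP1, ties the strands to the actin skeleton.

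The 4 inputs of the main comparison held from 29225501 to 35286514 expected counts each, of which 0.0363% to 0.0547% fell on mitochondrial genes. The second A549 pair held only 855034 and 982036, of which 75.2% and 73.9% were mitochondrial. All 6 epithelial marker genes reached 1 TPM (the length-corrected share of all transcripts) in 3 of the 4 inputs and 5 of the 6 in A549/DDP replicate 2, where KRT19 was at 0. No endothelial marker of 3 reached that level in any of the 4, with summed levels from 0 to 0.40 TPM. Of 4 leukocyte markers CD68 alone reached it, and the summed level was 154 to 156 TPM in A549 and 128 to 141 TPM in A549/DDP. Of 5 fibroblast markers, from 1 to 3 did, with a summed level of 5.25 to 8.93 TPM in A549 and 3.04 to 20.3 TPM in A549/DDP. EPCAM, a defining epithelial surface marker, was low in both lines, at 2.45 to 6.95 TPM.

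The claudin most abundant in A549 was scarce in A549/DDP, where another claudin led. CLDN1 stood at 324 and 198 TPM in the A549 libraries and at 12.6 and 16.4 TPM in the A549/DDP libraries. The groups did not overlap, and the lower A549 library was still far above either A549/DDP library. In CPM (counts scaled to library size and composition), the mean was 576 ± 243 in A549 and 31.5 ± 5.70 in A549/DDP (SD, n = 2 each). The log2 fold change was -4.19 (SE 0.35), an 18.3-fold lower level in A549/DDP. CLDN1 (ENSG00000163347.5) lies at chr3:190305707-190322446 on the minus strand of GRCh38, and its RefSeq span overlaps CLDN16.

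CLDN2 ran the other way. It stood at 4.16 and 6.91 TPM in A549 and at 152 and 147 TPM in A549/DDP. The A549/DDP libraries lay within a few percent of each other and far above both A549 libraries. The mean CPM was 9.90 ± 2.56 against 271 ± 8.26 (SD, n = 2 each), and the log2 fold change was 4.77 (SE 0.26), a 27.3-fold higher level. CLDN2 (ENSG00000165376.10) lies at chrX:106900164-106930861 on the plus strand, overlapping the span of RIPPLY1.

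The starts of these genes are shown because their levels differed most between the lines and in opposite directions, and that of CLDN7 because of the E-boxes it holds. Each sequence gives the 250 bases before a RefSeq start in GRCh38.p14, 5′ to 3′ on the gene's strand, with capitals marking matches to the motifs named after them. CLDN1 is from chr3:190322447-190322696 (minus strand), CLDN2 from chrX:106899914-106900163 (plus strand), its start further in from chrX:106918110-106918359 (plus strand), and CLDN7 from chr17:7262479-7262728 (minus strand).
CLDN1: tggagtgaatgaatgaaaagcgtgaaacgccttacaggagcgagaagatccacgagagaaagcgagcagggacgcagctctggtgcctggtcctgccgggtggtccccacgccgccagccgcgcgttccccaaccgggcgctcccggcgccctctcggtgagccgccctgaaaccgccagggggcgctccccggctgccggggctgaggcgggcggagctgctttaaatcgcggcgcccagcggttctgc
CLDN2: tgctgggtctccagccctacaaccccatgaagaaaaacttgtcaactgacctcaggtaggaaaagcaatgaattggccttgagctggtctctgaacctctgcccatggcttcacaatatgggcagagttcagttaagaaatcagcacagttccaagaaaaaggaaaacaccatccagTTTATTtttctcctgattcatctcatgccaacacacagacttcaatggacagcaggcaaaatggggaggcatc
CLDN2, inner start: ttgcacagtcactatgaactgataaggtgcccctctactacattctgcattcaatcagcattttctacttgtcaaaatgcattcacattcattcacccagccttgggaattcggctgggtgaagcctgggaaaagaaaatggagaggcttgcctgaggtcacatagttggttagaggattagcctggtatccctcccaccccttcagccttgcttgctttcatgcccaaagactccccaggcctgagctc
CLDN7: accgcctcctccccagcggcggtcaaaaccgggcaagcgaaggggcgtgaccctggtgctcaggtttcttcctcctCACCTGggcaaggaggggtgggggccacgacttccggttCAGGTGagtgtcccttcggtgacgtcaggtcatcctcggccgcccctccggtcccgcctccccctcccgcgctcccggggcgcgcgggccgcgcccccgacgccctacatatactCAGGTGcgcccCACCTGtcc

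These windows differ in base composition. Over the 300 bases from 250 before to 50 after the start, CLDN1 held 67% G and C and 31 CpG dinucleotides, against a median of 58.7% and 14 over 35116 RefSeq windows of that length. The CLDN2 windows held 47.3% and 51.3% G and C and only 1 and 2 CpG. Matches were sought on both strands, after the values were seen, to CAGGTG (the E-box bound by ZEB and Snail repressors), TTTATG and TTTATT (letters of CDX sites, which share their first bases), AACCNGTT (grainyhead), CAAAGTCCA (HNF4) and TATAAA. They are found in 20.6%, 10.6%, 17.4%, 1.73%, 0.384% and 11.5% of all windows, in that order. CLDN1 held none of them, and CLDN2 held a single TTTATT at its outer start. CLDN7 held 5 matches to the E-box at its inner start, of which 4 lie in the stretch printed here, while 0.0940% of all windows hold 5 or more. The limit of 5 is the count seen in this window, picked for its E-boxes, so that share is no test. CLDN3 and OCLN held the E-box in every window they had, and CLDN7, CLDN18 and TJP1 in only 1 of theirs. The outer start of CLDN7, not printed here, held none. The background of 20.6% is per window, and a gene with more windows has more chances of a match. A match is a run of letters and not evidence of a bound site. Of the 10 genes, 9 had at least 1 window in the RefSeq table.

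**Figure D1:**
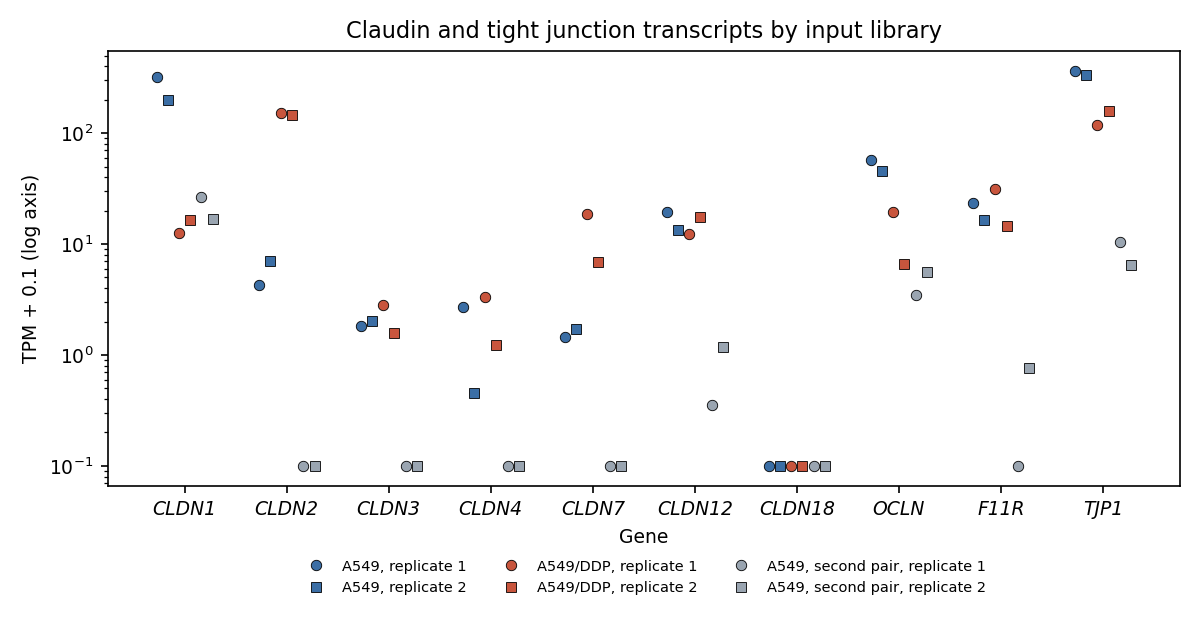
Level of each claudin and tight junction gene in the 6 input libraries, in TPM with 0.1 added on a log axis; circles are replicate 1 and squares replicate 2. In the first A549 pair CLDN1 was at 198 TPM or more and CLDN2 at 6.91 TPM or less; in A549/DDP CLDN1 was at 16.4 TPM or less and CLDN2 at 147 TPM or more in A549/DDP; CLDN18 was at 0 throughout.

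Counted against each other, the reads of these claudins changed sides. CLDN2 supplied 1.07% (95% exact Clopper-Pearson interval 0.945% to 1.21%) and 2.82% (2.56% to 3.10%) of the CLDN1 and CLDN2 counts in the A549 libraries. In A549/DDP it supplied 91.0% (90.4% to 91.6%) and 88.2% (87.5% to 88.8%). These intervals cover counting error only, and reads were not marked with molecular identifiers. Over all 24 claudin genes, CLDN1 made up 86.9% and 82.1% of the summed claudin TPM in A549 but 5.42% and 8.21% in A549/DDP. CLDN2 made up 1.12% and 2.86% in A549 and 65.5% and 73.6% in A549/DDP. The summed claudin level moved far less than its make-up, at 372 and 242 TPM in A549 and 232 and 200 TPM in A549/DDP. In these bulk libraries, fewer cells with a transcript and less of it per cell cannot be told apart.

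**Figure D2:**
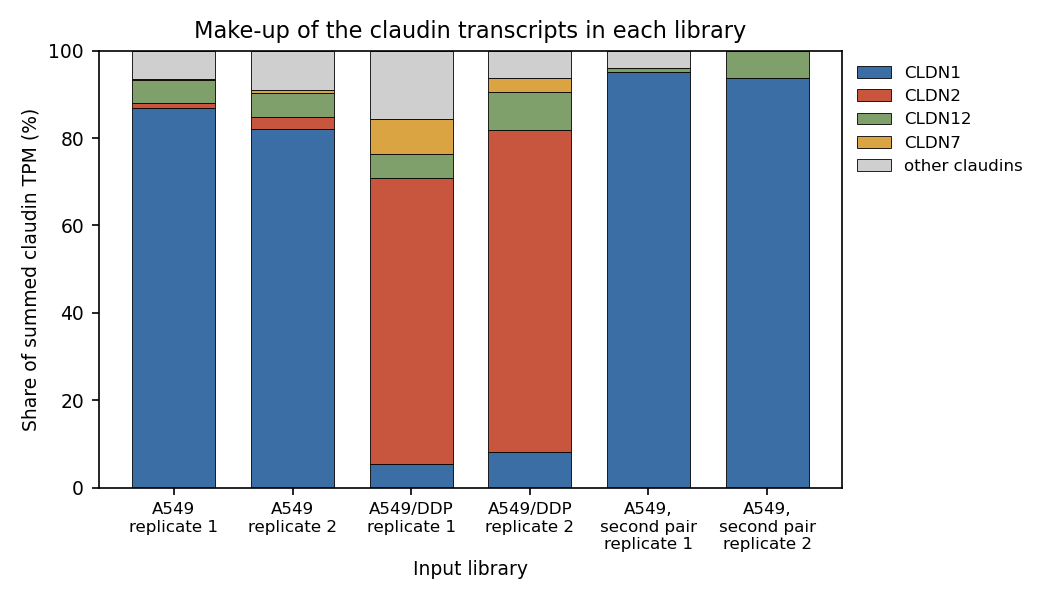
Share of the summed claudin TPM taken by CLDN1, CLDN2, CLDN12, CLDN7 and the remaining claudin genes in each input library, in percent; each bar sums to 100. CLDN1 takes 82.1% or more in both A549 pairs and CLDN2 takes 65.5% and 73.6% in A549/DDP.

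The remaining claudins of the set lay at 19.3 TPM or less. CLDN7, a claudin found along the lateral membrane of epithelial cells, stood at 1.34 and 1.62 TPM in A549 and 18.6 and 6.80 TPM in A549/DDP, from 19.5 and 26 counts against 217 and 164. Both A549/DDP libraries were higher, with a log2 fold change of 3.19 and a wide SE of 1.01. Its RefSeq span overlaps ELP5, and whether the counting used strand is not given in the sources used here. CLDN12, a claudin whose tail lacks the usual binding motif for ZO scaffolds, stood at 19.3 and 13.2 TPM in A549 and 12.3 and 17.4 TPM in A549/DDP. Its libraries overlapped, with a log2 fold change of -0.30 (SE 0.41).

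CLDN3 and CLDN4, barrier claudins of many glandular epithelia that lie close together on chromosome 7, were barely present. CLDN3 stood at 1.74 and 1.94 TPM in A549 and 2.70 and 1.48 TPM in A549/DDP. CLDN4 stood at 2.58 and 0.35 TPM in A549 and 3.25 and 1.12 TPM in A549/DDP. Both overlapped between the lines, with log2 fold changes of 0.18 (SE 1.37) for CLDN3 and 0.66 (SE 1.24) for CLDN4. CLDN18, whose lung isoform is a claudin of alveolar epithelium, had 0 counts in all 6 inputs, a count that allows up to 3 counts in each library.

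Of the partners, OCLN and TJP1 were lower in A549/DDP and F11R was not. OCLN stood at 56.8 and 45.9 TPM in A549 and 19.5 and 6.55 TPM in A549/DDP, with a log2 fold change of -1.94 (SE 0.44) and no overlap. It was -2.60 without A549/DDP replicate 1 and -1.51 without A549/DDP replicate 2. The pseudogene OCLNP1 took 0 and 146 counts in A549 and 0 and 51.8 in A549/DDP. How reads were divided between it and OCLN was not tested. The OCLN counts of both lines are uncertain by at least about that much in replicate 2, and by an unknown amount in replicate 1. F11R stood at 23.4 and 16.3 TPM in A549 and 31.4 and 14.5 TPM in A549/DDP. In TPM its A549/DDP libraries lay on both sides of the A549 ones. Its mean CPM was 42.8 ± 3.02 in A549 and 48.4 ± 6.26 in A549/DDP (SD, n = 2 each), with overlap. The log2 fold change, taken from the counts, was 0.18 (SE 0.23).

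TJP1 was the most abundant gene of the set in A549. It stood at 368 and 337 TPM there and at 119 and 158 TPM in A549/DDP. The mean CPM was 1015 ± 171 against 299 ± 17.8 (SD, n = 2 each), with a log2 fold change of -1.76 (SE 0.18) and no overlap. The mean length of the TJP1 transcripts that the authors' tables give, weighted by abundance, was 4576 and 4504 bases in A549 and 3808 and 3190 bases in A549/DDP. The ratio of the means was 0.771, and 11.3% of the genes tested had a lower one.

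Placed in order of their mean TPM in A549, the genes ran TJP1, CLDN1, OCLN, F11R, CLDN12, CLDN2, CLDN3, CLDN7, CLDN4 and CLDN18. TJP1 and CLDN1 did not overlap, nor did CLDN1 and OCLN or OCLN and F11R, whereas F11R and CLDN12 did. Farther down, CLDN7 and CLDN4 overlapped and the other neighbours did not. In A549/DDP CLDN2 and TJP1 shared the top with overlapping values, and CLDN1 had dropped among F11R, CLDN12, OCLN and CLDN7, all with overlapping ranges. Of the 9 genes with enough counts to be tested, 4 had an adjusted p below 0.05 in the edgeR fit, 1 higher and 3 lower in A549/DDP. Over all 16406 genes tested 14.9% were called, 6.85% higher and 8% lower. The CPM of the lines did not overlap for 5 of the 9, against 62.4% of all genes tested. The calls numbered 3 in limma, without OCLN, and 5 in DESeq2, with CLDN7. Because the genes were chosen by this contrast, nothing is read from these counts.

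By distance between centred log2 CPM profiles over the 4 inputs, the genes nearest to CLDN2 were HSPA8 (0.30), C2orf72 (0.36) and CP (0.37). The genes nearest to CLDN1 were TMEM156 (0.19), DDIT3 (0.21) and SAMD4A (0.23). HSPA8 went from 83.4 and 145 CPM to 2610 and 2414 CPM, and DDIT3 from 178 and 98.7 CPM to 7.52 and 8.34 CPM. With 4 libraries in 2 groups such a distance mostly reads the size of the change between the lines.

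The second A549 pair resembled the first in its claudin make-up. CLDN1 had 107 and 80 counts and CLDN2 had 0 in both libraries, so CLDN2 supplied 0% of their counts, with upper limits of 3.39% and 4.51%. In this comparison CPM was taken on the total without mitochondrial genes and was not scaled to composition. So counted, CLDN1 stood at 505 and 312 CPM there, against 698 and 414 CPM in the first A549 pair and 27.9 and 36.5 CPM in A549/DDP. At the lower A549/DDP level of CLDN2, 57.6 counts would have fallen in the shallower library. Set against a floor of 3 counts per library, CLDN2 was at least 19.2-fold higher in A549/DDP. The CLDN2 level of the first A549 pair lay at the edge of detection at this depth, since it would give at most 3.08 counts. TJP1 stood at 411 and 215 CPM there, which overlapped the 290 and 320 CPM of A549/DDP and not the 1059 and 917 CPM of the first A549 pair. OCLN had 5 and 7 counts, CLDN12 1 and 4.16, F11R 0 and 2, and CLDN3, CLDN4 and CLDN7 had 0. At the higher level of the first A549 pair, the deeper library would hold 11.2 counts of OCLN, 7.81 of CLDN12 and 10.7 of F11R. F11R thus lay well below the first A549 pair.

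The other claudins gave no call. Of 17 further claudin genes, 4 had enough counts to be tested, and none passed the threshold in edgeR with Benjamini-Hochberg adjustment, in DESeq2 or in limma. At an unadjusted p below 0.05 there was 1, CLDN20, named after its values were seen, which had 0 counts in A549/DDP. The most abundant of them was CLDN15, named after its values were seen, at 15.3 and 11.7 TPM in A549 and 20.5 and 6.32 TPM in A549/DDP, with a log2 fold change of -0.16 (SE 0.73, adjusted p = 0.921, edgeR). In A549/DDP replicate 1 it made up 8.83% of the claudin TPM, more than CLDN1. The median log2 fold change of the 4 was 0.14, against -0.0016 over all genes tested. Of 12 further transmembrane genes of the junction, 8 were tested and none passed in edgeR. At an unadjusted p below 0.05 there was 1, CRB3, a polarity protein of the apical membrane, named after its values were seen. It stood at 1.55 and 1.37 TPM in A549 and 12.4 and 19.8 TPM in A549/DDP, with an adjusted p of 0.0684 in edgeR, 0.00356 in DESeq2 and 0.0291 in limma. MARVELD2 (tricellulin) and CXADR (the coxsackievirus and adenovirus receptor) gave log2 fold changes of -0.28 (SE 0.44) and -0.43 (SE 0.45), with adjusted p of 0.735 and 0.594 in edgeR. Against the second A549 pair CXADR was called, with a log2 fold change of -2.98 and an adjusted p of 0.000479 in edgeR.

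Among the plaque and polarity genes, which hold the scaffold under the membrane and set the apical pole, 26 of 27 were tested, 1 rose and 3 fell, beside 6.85% higher and 8% lower (14.9% in all) over all genes tested. This share is close to that of all genes. Their median log2 fold change was -0.19; against the second A549 pair 10 were called higher and 3 lower, with a median of 1.69 beside 0.80 over all genes. AMOTL2, an angiomotin that ties junctions to YAP signalling, stood at 557 and 529 CPM in A549 and 59.4 and 53.9 CPM in A549/DDP. It fell by 3.26 on the log2 scale (SE 0.17, adjusted p = 0.00156 in edgeR with Benjamini-Hochberg adjustment), with all A549/DDP libraries below all A549 libraries. PALS1, a scaffold of the Crumbs complex, fell by 1.16 (SE 0.19, adjusted p = 0.0149, edgeR), and ARHGEF2 (GEF-H1), an exchange factor for small GTPases held at junctions, fell by 1.10 (SE 0.17, adjusted p = 0.0129, edgeR).

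TJP3, which encodes ZO-3, rose. It stood at 5.35 and 4.71 CPM in A549 and 16.8 and 24.2 CPM in A549/DDP, a log2 fold change of 2.03 (SE 0.44, adjusted p = 0.0314, edgeR). The ZO-binding protein cingulin (CGN) gave -0.38 (SE 0.59, adjusted p = 0.734, edgeR). Of these ZO genes, TJP1 was thus lower in A549/DDP and TJP3 higher. Without A549/DDP replicate 2 the adjusted p was 0.0675 for TJP3, 0.0724 for PALS1 and 0.0532 for ARHGEF2, and without A549/DDP replicate 1 it was 0.0682 for ARHGEF2. The count of calls in the list was 1 without A549/DDP replicate 2 and 8 without A549 replicate 2.

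In the adherens junctions and desmosomes, which hold cells together below the tight junction, 15 of 16 genes were tested. Of these, 3 rose and 1 fell, beside 6.85% and 8% of all genes tested. The list was chosen with earlier results of these data known, so this count is a description. CDH1, which encodes E-cadherin, stood at 33.6 and 83.4 CPM in A549 and 312 and 249 CPM in A549/DDP. It rose by 2.26 on the log2 scale (SE 0.43, adjusted p = 0.0220, edgeR), by 1.73 without A549 replicate 1 and by 3.04 without A549 replicate 2. NECTIN1, a nectin of adherens junctions, rose by 2.16 (SE 0.50, adjusted p = 0.0379, edgeR; 2.92 without A549 replicate 2), and DSP (desmoplakin) by 0.76 (SE 0.16, adjusted p = 0.0270, edgeR). PKP2 (plakophilin-2, a desmosomal plaque protein) fell by 1.76 (SE 0.25, adjusted p = 0.0104, edgeR). The calls of CDH1 and PKP2 held when any 1 library was left out. Without A549/DDP replicate 1 the adjusted p was 0.0551 for NECTIN1 and 0.123 for DSP, and without A549/DDP replicate 2 it was 0.179 for DSP. The list held 2 calls without A549/DDP replicate 1.

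**Figure D3:**
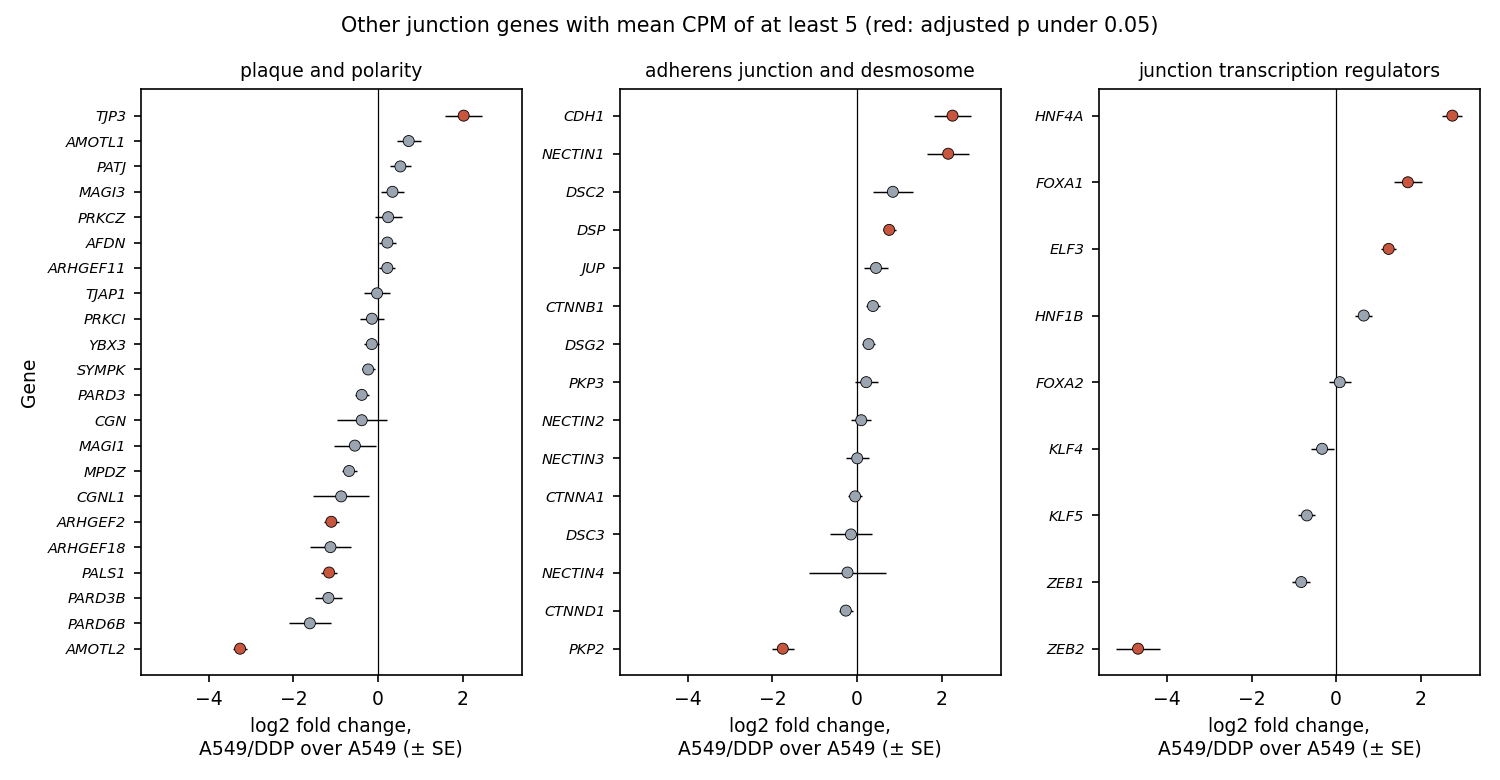
Log2 fold change of A549/DDP over A549 (edgeR, bars are 1 SE) of the other junction genes with a mean CPM of at least 5, by list, leaving out genes not reported here; red points had an adjusted p under 0.05. AMOTL2 at -3.26 and ZEB2 at -4.69 lie farthest to the left, and HNF4A at 2.75 and CDH1 at 2.26 farthest to the right.

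Of 21 transcription regulators known to act on junction genes, 18 were tested, 4 rose and 1 fell, beside 6.85% and 8% of all genes tested. Like the other lists, this list was chosen with earlier results of these data known. Its count of calls is thus a description, and the adjusted p-values do not allow for that choice. ZEB2, a repressor of CDH1 and of other epithelial genes through E-boxes, stood at 53.2 and 25.7 CPM in A549 and 1.69 and 1.38 CPM in A549/DDP. It fell by 4.69 on the log2 scale (SE 0.51, adjusted p = 0.00520, edgeR), and by 4.08 without A549 replicate 1. ZEB1, its close relative, gave -0.83 (SE 0.22) with an adjusted p of 0.0532 in edgeR and of 0.0176 in DESeq2. SNAI2 gave -1.57 (SE 2.28, adjusted p = 0.716, edgeR) at under 2 CPM, and GRHL2, a grainyhead activator of claudin genes, had 4 counts in A549/DDP replicate 1 and 0 in the other inputs. ESRP1, an epithelial splicing factor, gave 0.93 (SE 2.39, adjusted p = 0.850, edgeR).

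The regulators named here that rose are factors of gut, liver and lung epithelium. HNF4A stood at 21.4 and 30.5 CPM in A549 and 176 and 174 CPM in A549/DDP, a log2 fold change of 2.75 (SE 0.24, adjusted p = 0.00318, edgeR). FOXA1 rose by 1.70 (SE 0.33, adjusted p = 0.0227, edgeR). ELF3, named after its values were seen, rose by 1.24 (SE 0.17, adjusted p = 0.00980, edgeR). The calls of ZEB2, HNF4A and ELF3 held when any 1 library was left out. Without A549/DDP replicate 1 the adjusted p of FOXA1 was 0.0503.

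Of 6 genes that stabilise or cleave claudins, 4 were tested. None passed in edgeR, DESeq2 or limma, and none had an unadjusted p below 0.05 in edgeR. EPCAM, which binds and stabilises claudins, gave -0.07 (SE 0.99, adjusted p = 0.974, edgeR).

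The m6A peak lists, which give the stretches of RNA enriched by the antibody over input in each library, held 26320 and 14576 peaks for A549 and 27244 and 10661 for A549/DDP. The lists differ in length, so the absence of a peak from a list is not a measured absence of m6A. Overlapping peaks were merged into 28 regions at 5 of the 10 genes. CLDN1, CLDN3, CLDN7, CLDN18 and OCLN had no peak in any list. For CLDN1, at a mean of 304 CPM, a closer background is the genes with a mean of at least 100 CPM, of which 14.7% had none, against 43% of all genes tested. That mean joins 576 CPM in A549 and 31.5 CPM in A549/DDP, so for the A549/DDP lists this background is too abundant.

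CLDN2 was the gene of the set with peaks in all 4 lists, as were 13.9% of genes tested. It had 4 and 3 peaks in A549 and 5 and 3 in A549/DDP, covering 1437, 448, 1933 and 1533 bases. Their p-values, as listed, were 1.7e-08 and 2e-07 in A549 and 1.4e-05 and 4.2e-08 in A549/DDP, the same for every peak of a list. A region at chrX:106928144-106930120, from 741 to 2717 bases upstream of the RefSeq 3′ end, was shared by all 4. Peaks were thus listed in A549 as well, where the level was 4.16 and 6.91 TPM.

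TJP1 had no peak in either A549 list and 10 and 11 in the A549/DDP lists. These formed 13 regions, of which 6 were in both A549/DDP lists. They lay from 1146 to 121277 bases upstream of the 3′ end along the genome, and the farthest, in A549/DDP replicate 1, began 30 bases after an inner RefSeq start of the gene. Their p-values were modest, from 1.6e-05 to 0.00046 in replicate 1 and from 0.00046 to 0.0066 in replicate 2. None was at or below 1e-05. Many peaks of a list shared the same value, so these p-values are not separate for each peak. Of all genes tested, 1.97% had a peak in both A549/DDP lists and neither A549 list, and of the genes called lower in A549/DDP 4.04% did. That share was not taken among genes as abundant as TJP1, which had a mean of 657 CPM. Of the genes with a mean of at least 100 CPM, 57.7% and 52.3% had a peak in the A549 lists. In the A549/DDP lists 73.4% and 49.1% of them did. The m6A libraries' own depth is not in the lists, and its part in the TJP1 difference was not tested.

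CLDN4, in spite of its low level, had peaks in 3 lists, with 9 and 0 listed in A549 and 3 and 5 in A549/DDP. Some of these peaks overlap within a list. They made up 4 separate stretches in A549 replicate 1 and 3 and 4 in A549/DDP. They formed 5 regions, of which 3 lie before the RefSeq start of the gene, with p-values from 5e-10 to 1.5e-07. F11R had 0 and 1 peaks in A549 and 5 and 0 in A549/DDP, and CLDN12 had 3 in A549 replicate 1 and none elsewhere. No region was in both A549 lists and absent from both A549/DDP lists.

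**Figure D4:**
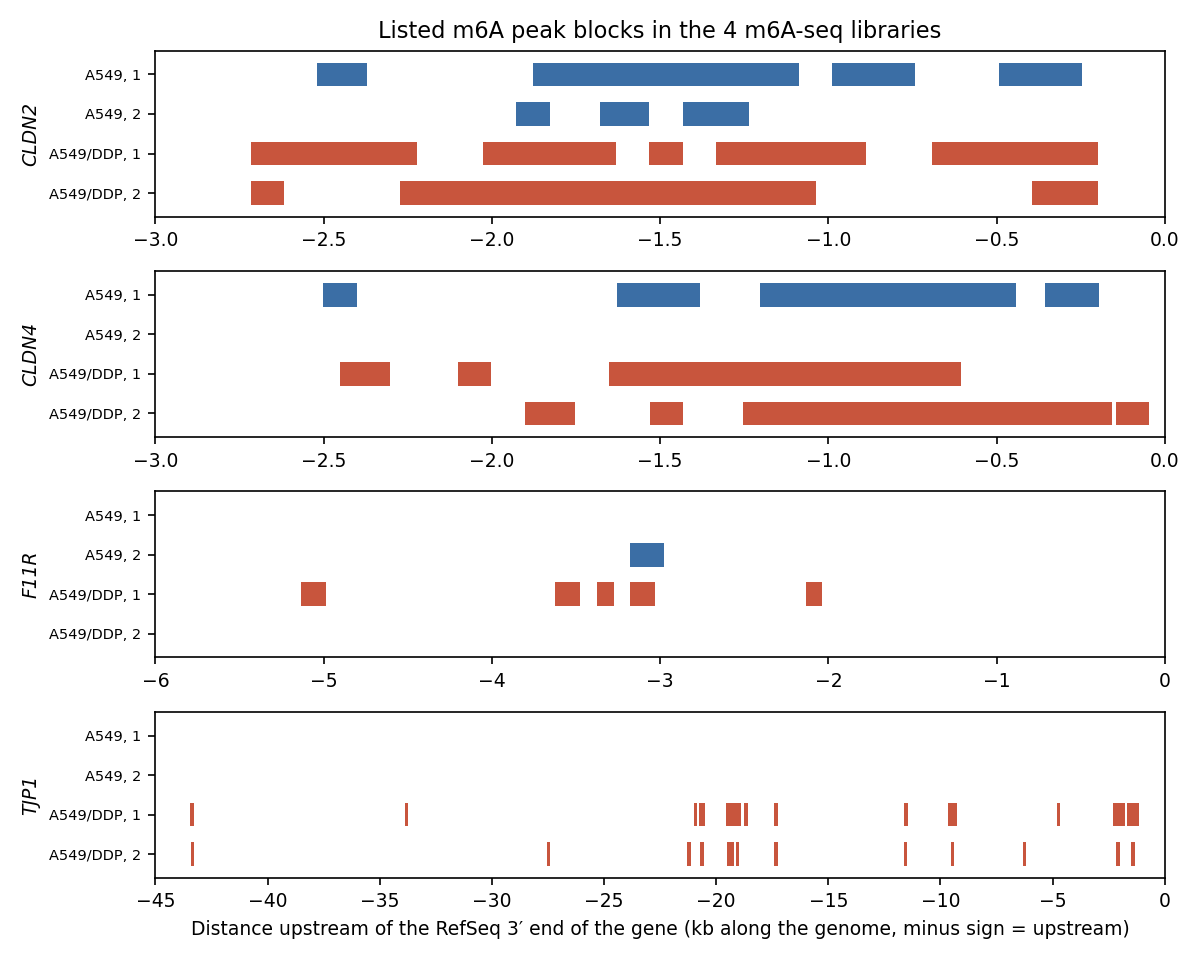
Blocks of the listed m6A peaks at CLDN2, CLDN4, F11R and TJP1 in the 4 m6A-seq libraries, by distance in kb upstream of the RefSeq 3′ end along the genome (3 TJP1 regions farther than 45 kb are not drawn). CLDN2 has blocks in every library, and TJP1 has them in the A549/DDP libraries and in neither A549 library.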

How the data were processed

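RNA abundance was taken from 6 input libraries and m6A peaks from 4 m6A-seq libraries. The authors made strand-specific paired-end libraries, and the labels' processing notes name STAR, RSEM, bedtools and hg38 without versions or roles. The caller of the peaks and the annotation are not given in the sources used here. The deposited tables hold RSEM expected counts, TPM and FPKM per gene. FPKM was not used. The deposited peak lists hold positions and a p-value per peak, and whether it was adjusted is not given. Peaks of the same gene in a list often carry the same p-value. Of 58037 identifiers 56948 matched a symbol.

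Expected counts were rounded and tested with edgeR 4.0.16 (R 4.3.3; TMM scaling, filterByExpr with a minimum of 10 counts, quasi-likelihood test, Benjamini-Hochberg adjustment over 16406 genes, threshold 0.05) on the 2 A549 and 2 A549/DDP inputs. Their totals ranged from 29225501 to 35286514. Replicates differed by far more than sampling noise (chi-square per degree of freedom 83.1 and 53.5, and 2.39 in the shallow second A549 pair). DESeq2 1.42.0, limma 3.58.1 on log2(TPM + 1) with a mean TPM of at least 1, other scalings and filters, a replicate block, the second A549 pair without mitochondrial genes, and leaving out each library were alternatives. The test was tried on simulated data.

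Peaks were matched by gene identifier and merged into regions where they overlapped, with 50% overlap and a p-value limit of 1e-05 as alternatives. Promoter windows, gene spans and sequences came from RefSeq (GRCh38.p14). The members and lists were chosen with earlier results of these data known. Named genes were all members, a few junction genes fixed by name, and in each list up to 4 called genes with a mean CPM of at least 5 and the largest change. Some genes of the lists enter the counts but are not reported here by name. ELF3, CLDN15, CLDN20, CRB3 and the keratins fall outside that rule and were named after their values were seen. File names of the A549 m6A-seq libraries number the replicates in the opposite order to the labels, and the labels were followed.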

Additional observations from a re-analysis of the deposited data

How the results depend on the processing

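The 2437 genes called became 4010 with no filter beyond 1 count, 4312 in DESeq2, 1492 in limma on log2(TPM + 1), 3763 with the second A549 pair, and 2052 to 3809 when 1 library was left out. Plaque and polarity calls, 4 in the analysis as reported, were 9 with no filter, 8 with at least 10 counts in every library, 8 in DESeq2, 2 in limma, 13 with the second A549 pair (10 higher and 3 lower, against 1 and 3 as reported, with a list median of 1.69 against -0.19) and 1 to 8 when 1 library was left out. Regulator calls, 5 as reported, were 8 with no filter and in DESeq2 and 3 in limma. Adherens junction and desmosome calls, 4 as reported, were 1 in limma and 2 to 5 when 1 library was left out. Other transmembrane calls, 0 as reported, were 1 with at least 10 counts in every library, in DESeq2 and in limma (CRB3, higher) and 1 with the second A549 pair (CXADR, lower, -2.98). PALS1 and DSP did not pass in limma, and ARHGEF2, FOXA1, NECTIN1 and PKP2 passed neither in limma nor with the second A549 pair; in that order, their highest adjusted p were 0.119, 0.159, 0.975, 0.0949, 0.211 and 0.512. AMOTL2, TJP3, ZEB2, HNF4A and CDH1 passed in each of the 7 alternatives that kept every library of an arm. Where an arm had 1 library, it was assumed to vary like the other group.

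Libraries of the same number shared only a number (correlation of deviations 0.0227). With the replicate block the calls over all genes were 3536 and those of the plaque and polarity list 8, with 7 among the regulators and 4 among the adherens genes.

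The median of all genes moved by 0.80 (log2) with the second A549 pair, by -0.20 without A549/DDP replicate 1 and by -0.11 without A549/DDP replicate 2. Of 99 alternative fold changes of the 9 claudin and junction genes tested, 89 stayed within the spread between replicates and 10 moved further. In 0 of them was a call reversed. Leaving out 1 library mostly shifts a mean by less than this spread, so most such values stay within it by construction. Most other settings refit the same libraries. With the second A549 pair, CLDN2, CLDN3, CLDN4, CLDN7, F11R and TJP1 moved further. Among values that were not called, those of CLDN3 (-0.36 to 0.55), CLDN4 (-0.13 to 2.44) and CLDN12 (-0.69 to 0.12) changed sign when 1 library was left out. The 4 calls among these 9 genes were 3 in limma, where OCLN was lost, 5 in DESeq2 and with at least 10 counts in every library, where CLDN7 was added, and 5 with the second A549 pair, where F11R was added.

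With peaks at or below 1e-05 the regions numbered 10, with 0 in every list, 0 in both A549/DDP lists alone and 1 gene with peaks in both A549/DDP lists. Leaving out 1 m6A library gave 6 to 15 regions in every remaining A549/DDP list alone, 0 to 3 in every remaining A549 list alone, 1 to 3 in every remaining list, and 1 to 3 genes with a peak in every remaining A549 list; fewer lists are then required by construction. Depth limits CLDN3, CLDN4 and CLDN7, at 19.5 to 217 counts, and all genes of the second A549 pair.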

Other observations

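The keratins, the intermediate filament proteins anchored at desmosomes, did not move together. These keratins were named after their values were seen. KRT8 stood at 1452 and 3094 CPM in A549 and 6862 and 6648 CPM in A549/DDP, and rose by 1.57 on the log2 scale (SE 0.34, adjusted p = 0.0324 in edgeR with Benjamini-Hochberg adjustment), by 2.20 without A549 replicate 2. Its partner KRT18 rose by 1.18 (SE 0.19, adjusted p = 0.0146, edgeR). KRT7, a keratin of simple ducts and of lung epithelium, stood at 4949 and 2999 CPM in A549 and 1299 and 1213 CPM in A549/DDP, and fell by 1.66 (SE 0.25, adjusted p = 0.0117, edgeR). The calls of KRT7, KRT8 and KRT18 held when any 1 library was left out. KRT19 gave -3.30 (SE 1.62, adjusted p = 0.221, edgeR).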
